A study of Wolfiporia cocos with 12 samples.

Results

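Lodgepole pine wood was compared with Avicel, a purified microcrystalline cellulose, as the carbon source of the brown rot fungus Wolfiporia cocos. The comparison covers 9992 of the 12746 gene models in the deposited table, which are those with a mean of at least 1 RPKM (reads per kilobase of model, scaled to sequencing depth) on pine or on Avicel. The models just inside that limit had a higher group mean of 1.0, 1.002 and 1.0037 RPKM, and those just outside 0.9997, 0.999 and 0.9983 RPKM. Every culture was of strain MD-104, filled 250 ml and was harvested after 5 days of shaking. The pine cultures held ground wood of Pinus contorta at 0.5% w/v in basal salts with no other carbon source, and the Avicel cultures held Avicel in a defined medium. Each medium had 3 cultures, and 3 more on ground aspen wood (Populus grandidentata) and 3 on glucose entered the fit and are given as context. The pine and aspen libraries were sequenced on lane 2 and the Avicel and glucose libraries on lane 1, so that lane and medium cannot be told apart in any difference between pine and Avicel. The basal salts and the defined medium may differ in more than the carbon source. P-values measure the spread between these separate cultures. Each library came from the RNA of a whole culture, in which fewer cells of a kind and less RNA per cell cannot be told apart.

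Brown rot fungi remove the cellulose and hemicellulose of wood and leave a modified lignin behind. Their attack is held to start with small oxidants made from iron and hydrogen peroxide, which open the wall before hydrolytic enzymes reach the polysaccharides. Pine wood offers cellulose together with galactoglucomannan, xylan, pectin, lignin and resin compounds, whereas Avicel is nearly pure cellulose. Glycoside hydrolase (GH) families group enzymes by sequence, and a family label does not settle on which polymer a protein acts.

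The spacing of low values gave a depth, in units of 1e6 reads, of 11.2 to 18.2 for the pine libraries and 9.83 to 17.8 for the Avicel libraries. At these depths 3 reads in a model of 1 kb were worth 0.165 to 0.268 RPKM on pine and 0.168 to 0.305 RPKM on Avicel, a floor that covers counting error only. These depths take the smallest common step as 1 read, and each would be larger if that step held more than 1. In the pine and Avicel libraries 38 to 52 models lay at that step and 1 to 4 at a step of 0.5 times its size. Replicates of a medium correlated across models at r = 0.976 to 0.991 on the log2 scale, and models are not independent replicates. Squared differences between replicates were 52.96 to 208 times what counting error alone gives, and each library was counted as 1 sample. Principal components were taken over all 12 libraries. On the first, with 56.6% of the variance, the pine libraries lay at 32.82 to 50.32 and the Avicel libraries at -35.82 to -18.59. The aspen libraries lay with pine at 30.62 to 36.29, and the glucose libraries beyond Avicel at -47.17 to -43.67. On the second, with 11.2%, Avicel replicate 3 stood apart at -40.77. On that reading of the steps, this library and pine replicate 2 were the least deep of their media. With both left out, 391 models were called higher and 276 lower, an alternative chosen after seeing the data. The sources used here do not say how reads from near-identical copies were counted, so single levels within large families carry that uncertainty.

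On pine, 465 models were called higher and 456 lower than on Avicel, which is 4.65% and 4.56% of the models tested and 9.22% in all. A call needed an adjusted p under 0.05 from limma, with Benjamini-Hochberg adjustment over all tested models, and a fold of at least 2 on the log2(RPKM + 1) scale. That scale understates the change of weakly expressed models. The called set included 281 models (2.81%) that changed at least 4-fold, 144 of them higher and 137 lower on pine. Without the fold threshold 19.8% of the tested models had an adjusted p under 0.05, of which 1187 were higher and 795 lower. At least 16-fold changes were reached by 13 models called higher and 18 called lower. The median log2 change over all tested models was 0.04. The 3 pine values and the 3 Avicel values did not overlap in 456 of the 465 models called higher and in 450 of the 456 called lower. Over all tested models the groups did not overlap in 35.4%, with pine higher in 21.3% and pine lower in 14.2%.

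Models called higher on pine had a median level of 44.1 RPKM on pine and 11.1 RPKM on Avicel, and those called lower 13.1 RPKM on pine and 48 RPKM on Avicel. As a share of all RPKM, the models called higher made up 12.3% to 14.8% of a pine library and 3.28% to 3.54% of an Avicel library. They took 9.45% to 11.3% of an aspen library and 2.49% to 2.53% of a glucose library. The models called lower made up 4.59% to 5.46% of a pine library and 16.4% to 21.1% of an Avicel library, and 5.7% to 6.69% on aspen and 14.9% to 18.6% on glucose. The medians and shares on pine and Avicel rest on the same libraries as the calls, which fix their direction. A signal peptide probability of at least 0.9, the mark of a protein sent into the secretory route, was deposited for 69 models called higher (14.8%) and 56 called lower (12.3%), against 7.12% of all tested models. An InterPro label, which names a protein family, was present for 64.1% of the models called higher and 52.0% of those called lower, against 63.6% of all tested.

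**Figure D1:**
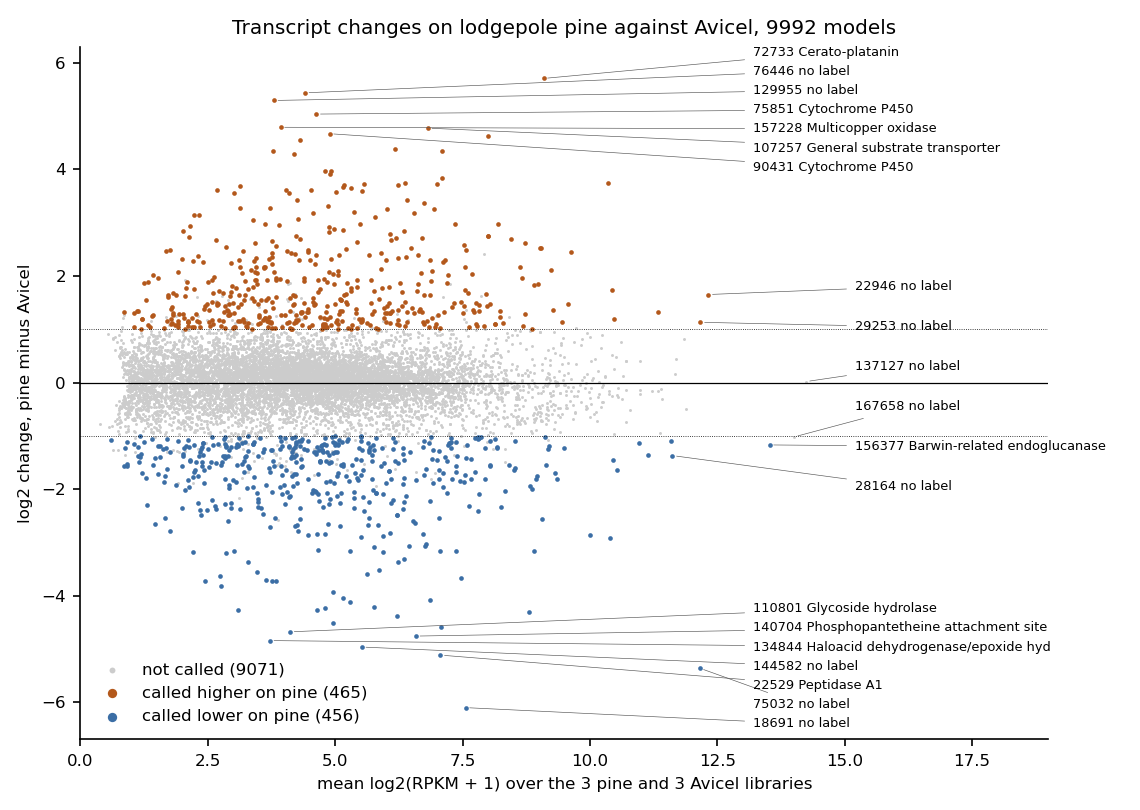
Fitted log2 change, pine minus Avicel, of 9992 models against their mean log2(RPKM + 1) over the 3 pine and 3 Avicel libraries. Orange points are the 465 models called higher on pine, blue points the 456 called lower, grey points the models not called, and dotted lines mark a 2-fold change. The widest changes reached 5.71 for cerato-platanin 72733 and -6.10 for 18691, which has no label.

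The models were grouped by 55 lists of words applied to the InterPro labels. Calls among transport proteins and pectin enzymes were mostly higher on pine, and calls among aspartic peptidases and sedolisins mostly lower. Cytochromes P450 were called in equal number in both directions. The counts of every list are to be read against the 4.65% called higher and 4.56% called lower among all tested models.

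**Figure D2:**
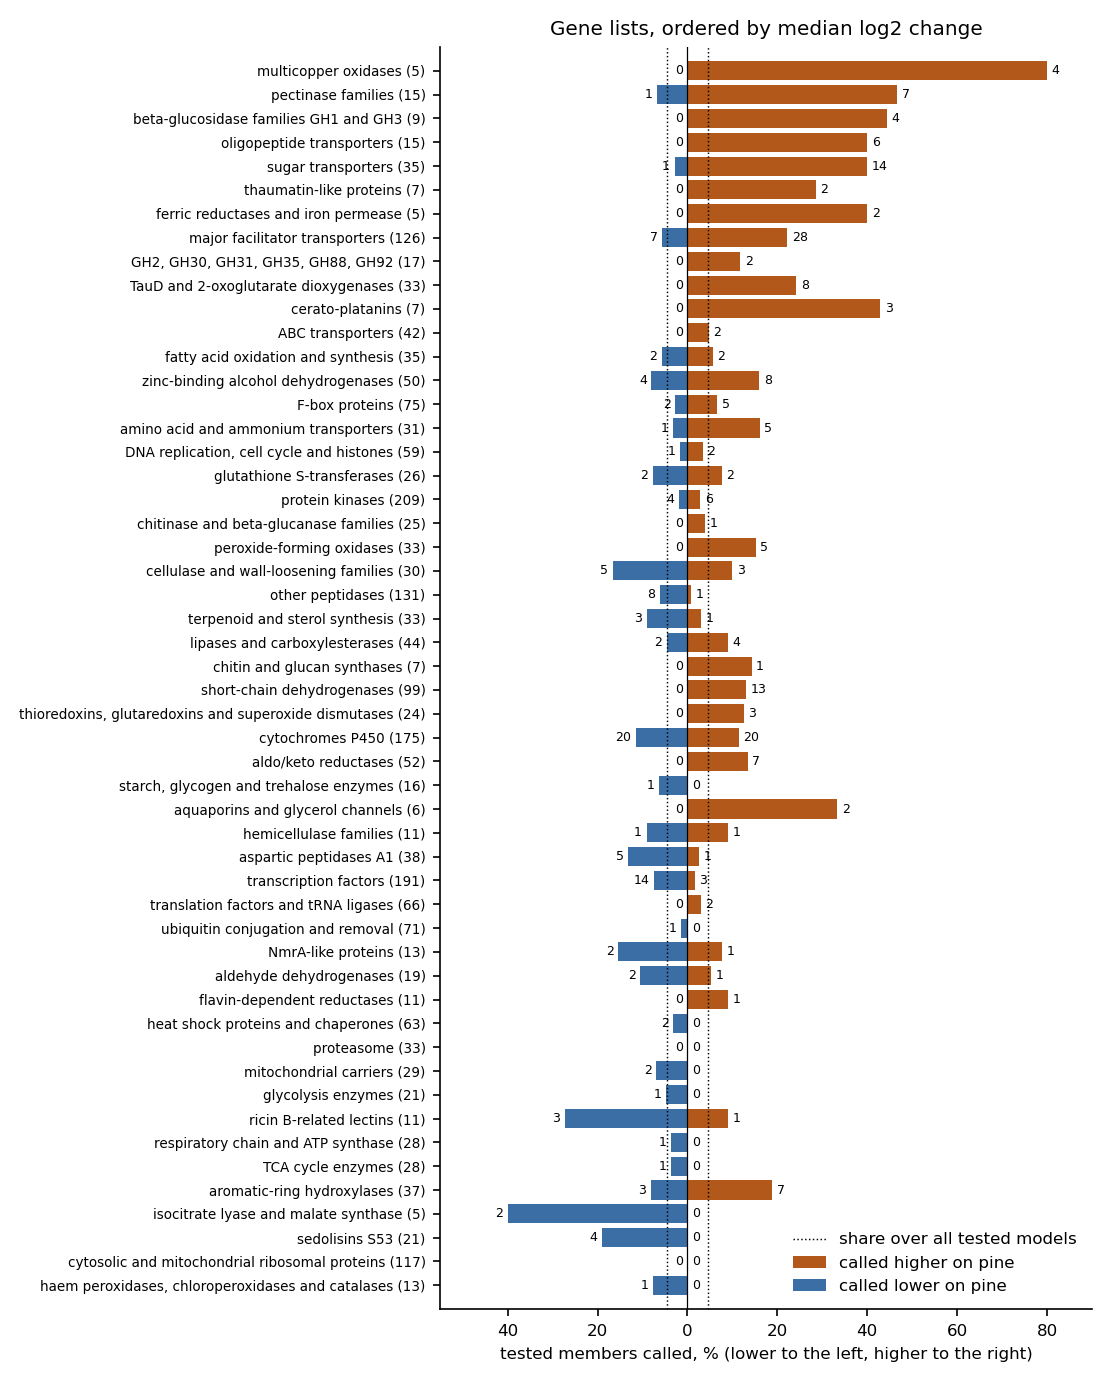
For each word list with at least 5 tested members, percent of those members called higher on pine (orange, to the right) and called lower (blue, to the left), with the number called beside each bar and the number tested in brackets. Dotted lines mark 4.65% and 4.56%, the shares of all tested models, and the lists shown run from the highest median log2 change (multicopper oxidases, 1.66) to the lowest (haem peroxidases, chloroperoxidases and catalases, -0.61).

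Pectin enzymes were the group of wall hydrolases with the most members higher on pine. Pectin is a polymer rich in galacturonic acid that glues plant cells together and holds the pit membranes of softwood. Of 15 tested members 7 were called higher and 1 lower, with a median log2 change of 0.99. Of the 7, 6 belonged to GH28, the family of polygalacturonases that cut the pectin backbone. The family's 9 tested members all had a positive log2 change, with a median of 1.27. Summed over the family, the GH28 models stood at 274 RPKM on pine and 53.1 RPKM on Avicel. With single libraries left out, 4 to 7 of the 9 were called, and 3 with a pseudocount of 5 or with only the pine and Avicel libraries fitted.

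GH28 128405 was read at 120.0, 226 and 81.05 RPKM in the pine cultures and at 7.46, 8.92 and 10.9 RPKM in the Avicel cultures (log2 change 3.71, SE 0.40, limma adjusted p = 9.61e-05). Every pine value lay above every Avicel value, and pine replicate 2 was the highest, as it also was for GH28 125762. This second model was at 13.4, 73.1 and 24.1 RPKM on pine and 2.62, 2.09 and 3.26 RPKM on Avicel (log2 change 3.04, SE 0.44, limma adjusted p = 0.000781). GH28 92023 was tighter, with 13.9, 17.3 and 10.8 RPKM on pine and 3.23, 3.57 and 2.83 RPKM on Avicel (log2 change 1.81, SE 0.17, limma adjusted p = 4.88e-05; 1.20 with a pseudocount of 5). Its aspen values, 3.80, 4.28 and 3.74 RPKM, lay near its Avicel values, unlike those of 128405, which were 50.5, 119.8 and 43.9 RPKM on aspen. The remaining called members, 79505, 25835 and 29110, had log2 changes of 1.27, 1.06 and 1.30. The call on 29110 rested on levels under 10 RPKM and had a limma adjusted p of 0.0469, which passed 0.05 under most alternatives, among them leaving out pine replicate 1 or 2 or Avicel replicate 1 or 2 (highest 0.157, with a log2 change of 0.82 without pine replicate 2).

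The pectinesterases, which strip methyl groups from pectin, went both ways. Pectinesterase 165643 was at 43.96, 56.1 and 26.04 RPKM on pine and 2.81, 3.57 and 3.32 RPKM on Avicel (log2 change 3.28, SE 0.30, limma adjusted p = 3.96e-05), with no overlap. Pectinesterase 28342 was at 26.5, 24.8 and 31.4 RPKM on pine and 46.8, 187 and 107 RPKM on Avicel (log2 change -1.8, SE 0.44, limma adjusted p = 0.0141). Its pine values were close together and below all Avicel values, among which replicate 1 was the lowest. Without pine replicate 2 and Avicel replicate 3 together its adjusted p was 0.102. None of the 4 models with a pectin lyase fold was called. The most abundant of them, 23116, was at 1818, 1723 and 1663 RPKM on pine and 1229, 1154 and 1338 RPKM on Avicel (log2 change 0.49, limma adjusted p = 0.233), and was picked for its level.

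Models of families GH1 and GH3, to which most fungal beta-glucosidases and beta-xylosidases belong, also leaned towards pine. All 9 tested members had a positive change, 4 were called higher and none lower, and the median was 0.93. The 4 were GH3 models. GH3 137577 was at 70.8, 99.2 and 43.8 RPKM on pine and 6.32, 22.8 and 23.0 RPKM on Avicel (log2 change 2.09, SE 0.42, limma adjusted p = 0.00509), and GH3 23559 at 107, 106 and 85.8 RPKM on pine and 15.6, 40.7 and 55.1 RPKM on Avicel (log2 change 1.56, SE 0.35, limma adjusted p = 0.00929). In both, Avicel replicate 1 was the lowest of the 6 values. GH3 29607 had narrow groups, 163, 146 and 158 RPKM on pine and 81.1, 71.5 and 63.1 RPKM on Avicel, and changed by little more than 2-fold (log2 change 1.11, SE 0.13, limma adjusted p = 0.000186). GH3 26667, with a log2 change of 1.36 (limma adjusted p = 0.0165), was not called without pine replicate 2 (adjusted p = 0.0521). The call on 23559 was lost when only the pine and Avicel libraries were fitted (adjusted p = 0.051).

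Families that include enzymes which trim side groups and short fragments of hemicellulose had 2 calls, both higher on pine. In the list of GH2, GH30, GH31, GH35, GH88 and GH92, 2 of 17 tested members were called higher and none lower (median 0.36). The share called higher was above the 4.65% of all tested models. GH31 149294, of a family with alpha-glucosidases and alpha-xylosidases, was at 144, 121 and 105.3 RPKM on pine and 16.97, 45.5 and 52.2 RPKM on Avicel (log2 change 1.8, SE 0.33, limma adjusted p = 0.00325). GH2 24785, of a family with beta-mannosidases and beta-galactosidases, was at 170.5, 172 and 149 RPKM on pine and 60.5, 83.6 and 48.001 RPKM on Avicel (log2 change 1.37, SE 0.19, limma adjusted p = 0.000562). Neither overlapped. With Avicel replicate 1 left out, 1 member of this list was called lower.

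Of 11 hemicellulase models 1 was called higher and 1 lower (median 0.02). The higher one, clan GH-D 147566, belongs to a clan that includes alpha-galactosidases, which remove the galactose branches of softwood glucomannan. It was at 214, 381 and 241.6 RPKM on pine and 102, 75.7 and 111 RPKM on Avicel (log2 change 1.5, SE 0.28, limma adjusted p = 0.00336). The lower one, GH10 110801, of the endoxylanase family, was at 4.40, 2.93 and 0.903 RPKM on pine and 6.94, 209 and 402 RPKM on Avicel (log2 change -4.67, SE 1.09, limma adjusted p = 0.0117). Its Avicel values spanned a wide range, and the lowest, in replicate 1, lay close above the pine values. The most abundant GH10 model, 164484, chosen after its values were seen, was at 946, 1509.7 and 434 RPKM on pine and 132, 1026 and 1701 RPKM on Avicel and was not called (log2 change 0.48, SE 0.79, limma adjusted p = 0.703). Its groups overlapped fully.

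The list of cellulase and wall-loosening families, which holds GH5, GH12 and barwin-related and expansin-like models, split in both directions. Of 30 tested members 3 were called higher and 5 lower, with a median of 0.11. Within GH5, a family of endoglucanases, endomannanases and other enzymes, 2 of 17 were higher and 3 lower. Among the higher ones, GH5 139561 was at 312, 316 and 192 RPKM on pine and 19.01, 39.0 and 85.1 RPKM on Avicel (log2 change 2.71, SE 0.46, limma adjusted p = 0.00208). GH5 147868 was at 117, 111 and 90.1 RPKM on pine and 20.4, 45.4 and 79.6 RPKM on Avicel (log2 change 1.30, SE 0.36, limma adjusted p = 0.0248). All pine values of both lay above the Avicel values, of which replicate 1 was the lowest. The third model called higher, barwin-related endoglucanase 131156 (log2 change 2.43), was not called without Avicel replicate 3 (adjusted p = 0.0651). The call on 147868 was lost without pine replicate 1 or 2 or Avicel replicate 1 or 2 (adjusted p up to 0.0742), and its change was 0.80 without Avicel replicate 1.

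Lower on pine were GH5 141870 and GH12 24190, whose families hold endoglucanases and, in GH12, xyloglucanases. GH5 141870 was at 60.03, 26.7 and 11.3 RPKM on pine and 95.8, 1247 and 2397 RPKM on Avicel (log2 change -4.59, SE 0.99, limma adjusted p = 0.0078). GH12 24190 was at 30.3, 12.9 and 9.04 RPKM on pine and 38.5, 537 and 1809 RPKM on Avicel (log2 change -4.37, SE 1.04, limma adjusted p = 0.0129). As in GH10 110801, Avicel replicate 1 lay far below the other Avicel replicates and just above the pine values. Without it the log2 changes were -5.97 for 141870, -5.92 for 24190 and -6.41 for 110801. With pine replicate 2 and Avicel replicate 3 both left out the calls on all 3 were lost (adjusted p = 0.0664, 0.0905 and 0.08), as were those on 24190 and 110801 when only pine and Avicel libraries were fitted (adjusted p = 0.065 and 0.0639). In the whole list 2 members were lower without those 2 libraries, and 1 was higher and 3 were lower in the fit of pine and Avicel alone. GH5 135575 and GH5 137702 changed less and with tighter values. GH5 135575 was at 80.6, 99.5 and 117 RPKM on pine and 235, 184 and 250.2 RPKM on Avicel (log2 change -1.17, SE 0.20, limma adjusted p = 0.00245), and GH5 137702 at 21.6, 27.2 and 19.4 RPKM on pine and 77.9, 74.6 and 52.99 RPKM on Avicel (log2 change -1.54, SE 0.20, limma adjusted p = 0.000389).

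Avicel replicate 1 was the lowest of the 3 Avicel libraries in 28 of the 50 members (56.0%) of the cellulase, GH1 and GH3, and hemicellulase lists, against 30.1% of all tested models. In the sugar transporter list it was the lowest in 19 of 35. The part of this library in the results above was not tested beyond the values given without it.

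**Figure D3:**
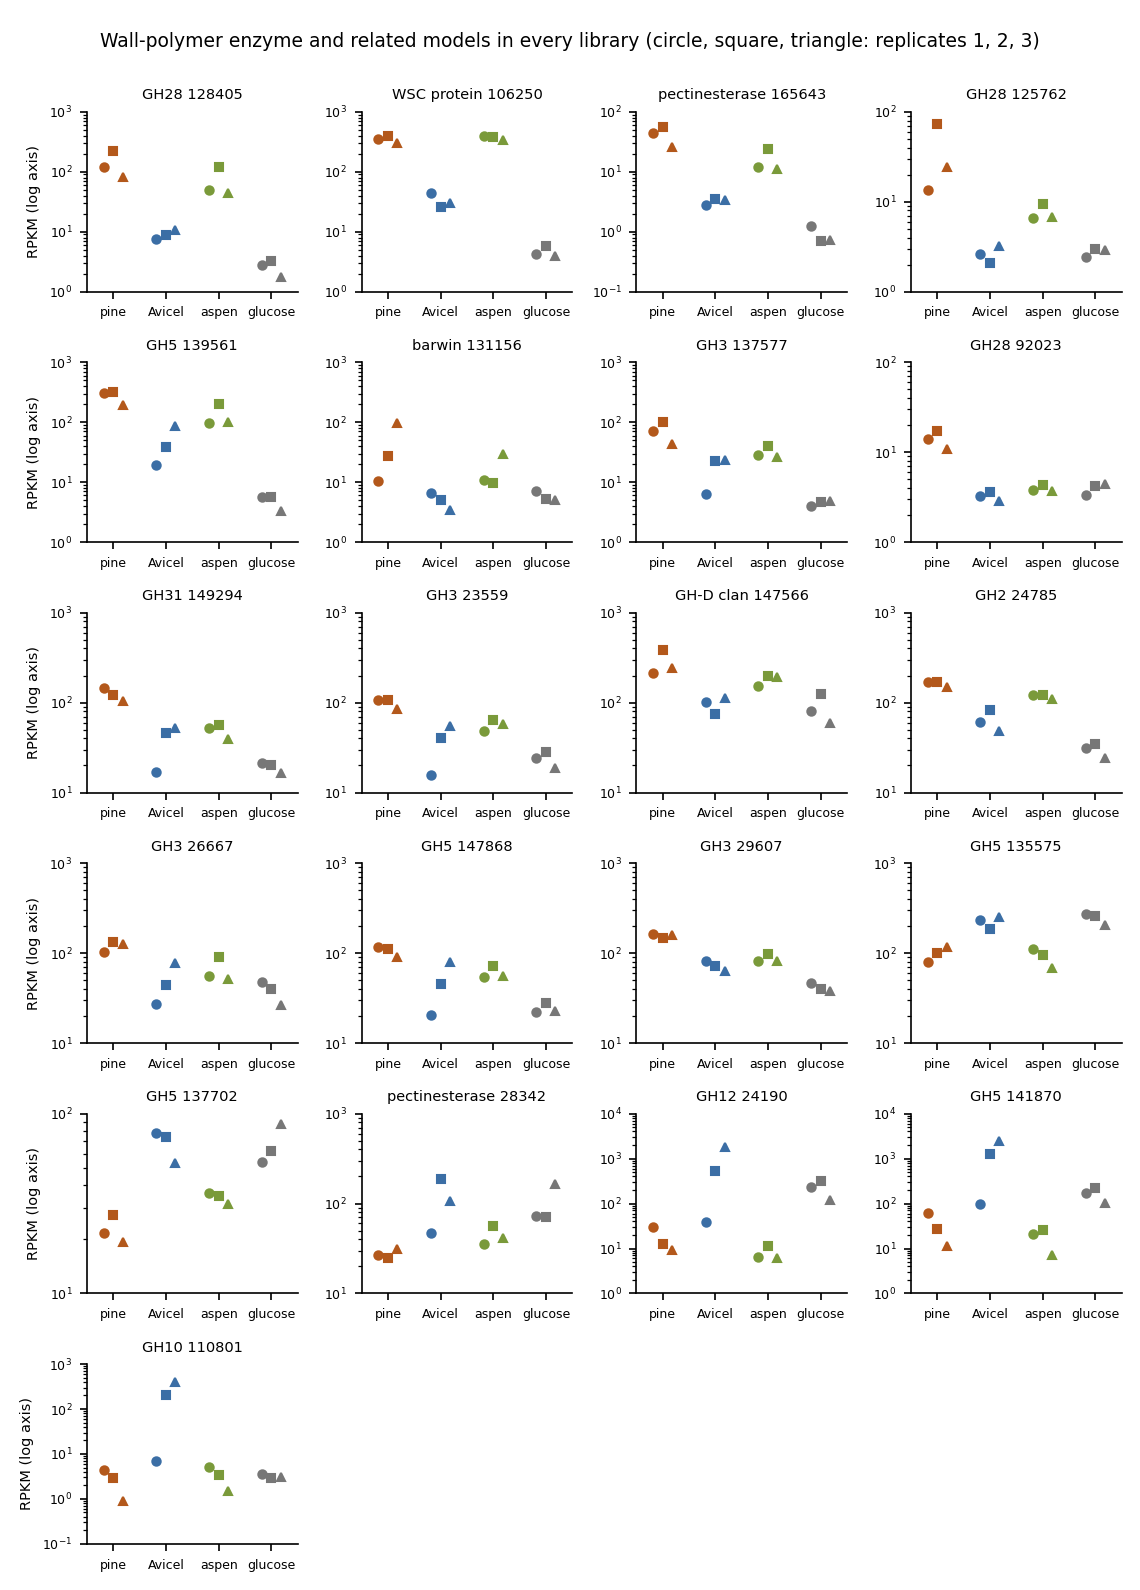
RPKM on a log axis in every library of the named models from families that include proteins acting on wall polymers or binding them, in order of log2 change. Orange points are pine, blue Avicel, green aspen and grey glucose, with a circle, a square and a triangle for replicates 1, 2 and 3. GH12 24190, GH5 141870 and GH10 110801 show Avicel replicate 1 at 38.5, 95.8 and 6.94 RPKM, far below replicates 2 and 3.

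Among other enzymes of polysaccharide turnover, the GH61 and chitinase lists had few calls. Neither of the 2 tested GH61 models, lytic polysaccharide monooxygenases that oxidise cellulose, was called. GH61 134838 was at 42.8, 28.3 and 20.4 RPKM on pine and 17.6, 16.2 and 11.2 RPKM on Avicel, without overlap (log2 change 0.94, limma adjusted p = 0.0334), and missed the fold threshold. Without pine replicate 3 or Avicel replicate 1, 1 GH61 model was called higher. Among 25 chitinase and beta-glucanase models, which remodel the fungal wall, 1 was called higher and none lower (median 0.13). It was GH20 24056 with 645, 824 and 547 RPKM on pine and 382, 301 and 306 RPKM on Avicel (log2 change 1.01, SE 0.17, limma adjusted p = 0.0021), just past the fold threshold and short of it without pine replicate 2 (0.85), Avicel replicate 2 (0.95) or Avicel replicate 3 (0.96) and with median centring (0.94). A broader label, the GH catalytic core, had 3 of 10 members called higher and none lower (median 0.51), a share above the 4.65% of all tested models. Without Avicel replicate 2, 1 was called higher. GH catalytic core 138259 was at 118, 98.4 and 121 RPKM on pine and 46.5, 42.0 and 61.1 RPKM on Avicel (log2 change 1.17, SE 0.24, limma adjusted p = 0.00614).

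Among small secreted proteins was the labelled model with the widest rise. Cerato-platanins are small cysteine-rich proteins of the fungal surface with a fold like that of expansins. Cerato-platanin 72733 was at 3146, 3863 and 5019.9 RPKM on pine and 92.6, 45.5 and 97.4 RPKM on Avicel (log2 change 5.71, SE 0.35, limma adjusted p = 2.33e-06). Its aspen values, 3319.7, 4638 and 5091 RPKM, were as high as those on pine, and its glucose values were 5.24, 4.69 and 11.7 RPKM. In the list 3 of 7 tested members were called higher and none lower (median 0.28). Cerato-platanin 136006 was at 615, 564 and 609.7 RPKM on pine and 258, 277 and 317 RPKM on Avicel (log2 change 1.07, SE 0.27, limma adjusted p = 0.0166), a call lost without pine replicate 2 and Avicel replicate 3 together (adjusted p = 0.0593). Cerato-platanin 101791 varied widely, at 976, 275 and 4281 RPKM on pine and 243, 96.8 and 208 RPKM on Avicel (limma adjusted p = 0.0468), and its call was lost without any single pine or Avicel library except pine replicate 2 (adjusted p up to 0.136). Its log2 change of 2.62 was 1.60 without pine replicate 3. With pine replicate 1 or Avicel replicate 3 left out, or with median centring, 1 cerato-platanin was called lower.

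WSC protein 106250, whose domain binds carbohydrates, was at 347, 388 and 299.9 RPKM on pine and 43.97, 25.9 and 29.96 RPKM on Avicel (log2 change 3.36, SE 0.19, limma adjusted p = 1.4e-06). Thaumatin-like proteins, some of which act on beta-glucan, had 2 of 7 members called higher (median 0.53). Thaumatin-like 26263 was at 333, 436 and 317 RPKM on pine and 165, 138 and 124 RPKM on Avicel (log2 change 1.34, SE 0.15, limma adjusted p = 0.000127). The more abundant thaumatin-like 127776, at 3965, 3269 and 5343 RPKM on pine and 1334, 1288 and 2601 RPKM on Avicel, was called at a limma adjusted p of 0.04. That call was lost without any single pine library or Avicel replicate 1 or 2 (highest 0.12), with median centring (0.0532), with only pine and Avicel fitted (0.0575) and with no filter on low values (0.0591).

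Some other surface and sugar-binding proteins were lower on pine. Ricin B-related lectins had 1 of 11 tested members called higher and 3 lower (median -0.18). Ricin B-related lectin 28640 was at 30.4, 21.6 and 27.9 RPKM on pine and 109, 131 and 104 RPKM on Avicel (log2 change -2.07, SE 0.24, limma adjusted p = 0.000177), and its glucose values were higher again, 379, 419 and 325 RPKM. Fungal fruit body lectin 81600 was at 7.16, 5.25 and 8.76 RPKM on pine and 57.8, 66.5 and 436 RPKM on Avicel (log2 change -3.92, SE 0.73, limma adjusted p = 0.0035). The groups lay far apart, with Avicel replicate 3 above its replicates. The only tested hydrophobin, 141043, one of the amphipathic proteins that coat hyphae, was at 0.411, 0.0910 and 0.392 RPKM on pine and 1.26, 5.59 and 46.1 RPKM on Avicel (limma adjusted p = 0.0252). Its pine values were near the counting floor, and its call was lost without pine replicate 1 (adjusted p = 0.0576) or 2 (0.0713). Its log2 change of -2.79 was -1.58 without Avicel replicate 3, -4.29 with a pseudocount of 0.1 and -1.5 with one of 5, where the call was lost (adjusted p = 0.0712), as it was with only pine and Avicel fitted (0.106).

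Transport proteins were prominent among the models higher on pine. Sugar transporters take up the mono- and disaccharides that wall hydrolysis releases. Of 35 tested members 14 were called higher and 1 lower, with a median of 0.60, and 13 to 15 were higher with any single library left out. Their summed level was 7330 RPKM on pine and 1930 RPKM on Avicel. Sugar transporter 102298 was at 1175, 1684 and 1055 RPKM on pine and 41.6, 62.4 and 49.7 RPKM on Avicel (log2 change 4.63, SE 0.22, limma adjusted p = 4.6e-07). General substrate transporter 107257 was at 432, 917 and 517 RPKM on pine and 22.4, 17.7 and 21.8 RPKM on Avicel (log2 change 4.78, SE 0.28, limma adjusted p = 1.74e-06). In both, pine replicate 2 was the highest library and the Avicel libraries lay within a narrow range.

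Sugar transporter 25027 was at 215, 316 and 312 RPKM on pine and 14.8, 26.2 and 38.3 RPKM on Avicel (log2 change 3.44, SE 0.29, limma adjusted p = 2.15e-05). Sugar transporter 135536 was at 323, 498 and 333 RPKM on pine and 42.97, 43.6 and 30.4 RPKM on Avicel (log2 change 3.26, SE 0.18, limma adjusted p = 1.38e-06). General substrate transporter 137336 was at 823, 1129.9 and 753 RPKM on pine and 97.0, 146 and 179 RPKM on Avicel (log2 change 2.69, SE 0.30, limma adjusted p = 0.000129). None of these 3 overlapped between media. The only member called lower, 164773, stood at 8.44, 12.497 and 10.5 RPKM on pine and 17.6, 38.3 and 29.0 RPKM on Avicel (log2 change -1.30, SE 0.34, limma adjusted p = 0.0188), and was not called without pine replicate 1 or Avicel replicate 2 or 3 (adjusted p up to 0.07). The remaining 20 had log2 changes between -0.22 and 0.96.

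In the wider family of major facilitator transporters, which move sugars, drugs and small acids, 28 of 126 tested members were called higher and 7 lower (median 0.38), or 4 lower with a pseudocount of 5. Major facilitator 127030 was at 292, 331 and 287 RPKM on pine and 27.2, 24.6 and 15.4 RPKM on Avicel (log2 change 3.74, SE 0.20, limma adjusted p = 1.22e-06). Major facilitator 106119 was at 394, 501 and 509 RPKM on pine and 21.1, 30.2 and 62.4 RPKM on Avicel (log2 change 3.72, SE 0.38, limma adjusted p = 7.55e-05). On the lower side, major facilitator 167613 was at 18.96, 12.05 and 43.5 RPKM on pine and 103, 183 and 155 RPKM on Avicel (log2 change -2.67, SE 0.36, limma adjusted p = 0.000525). Its glucose values, 221, 206 and 207 RPKM, resembled those on Avicel.

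Nitrogen and peptide transporters also rose in part. Oligopeptide transporters, which import short peptides, had 6 of 15 members called higher and none lower (median 0.61). Oligopeptide transporter 125778, the most abundant of the 4 named, was at 754, 804 and 876 RPKM on pine and 223, 195 and 199.7 RPKM on Avicel (log2 change 1.97, SE 0.17, limma adjusted p = 2.33e-05), and 123017 was at 106, 97.9 and 59.6 RPKM on pine and 6.97, 17.3 and 9.88 RPKM on Avicel (log2 change 2.89, SE 0.33, limma adjusted p = 0.000138). Among 31 amino acid and ammonium transporters 5 were called higher and 1 lower (median 0.17). Amino acid permease 105323 was at 77.0, 51.6 and 116 RPKM on pine and 7.51, 10.1 and 13.25 RPKM on Avicel (log2 change 2.83, SE 0.35, limma adjusted p = 0.000276). The Rh-like ammonium transporter 139405 was at 126, 139 and 124 RPKM on pine and 38.0, 46.7 and 59.98 RPKM on Avicel (log2 change 1.43, SE 0.19, limma adjusted p = 0.000431). Both were higher in each pine culture than in any Avicel culture. Amino acid permease 141085 was lower on pine, at 11.4, 8.79 and 12.7 RPKM on pine and 20.9, 44.9 and 108 RPKM on Avicel (log2 change -2.01, SE 0.43, limma adjusted p = 0.0072; -1.28 without pine replicate 2 and Avicel replicate 3).

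Channels and pumps had fewer calls. Of 42 ABC transporters, pumps driven by ATP, 2 were called higher and none lower (median 0.27). Their share called higher was near the 4.65% of all tested models. ABC transporter 109849 was at 221, 348 and 286 RPKM on pine and 25.5, 35.3 and 30.2 RPKM on Avicel (log2 change 3.18, SE 0.24, limma adjusted p = 9.82e-06), with aspen values of 110.5, 189 and 148 RPKM. Of 6 aquaporins and glycerol channels 2 were called higher (median 0.06), and 24864 stood at 156, 289 and 146 RPKM on pine and 69.3, 46.5 and 65.6 RPKM on Avicel (log2 change 1.64, SE 0.26, limma adjusted p = 0.00132). With Avicel replicate 1 left out, 1 channel was called lower.

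Some genes for iron uptake and for iron or copper redox chemistry were higher on pine. Any part of theirs in the making of oxidants was not tested. Of 5 tested ferric reductase and iron permease models 2 were called higher and none lower (median 0.52). FTR1 139155, of the high-affinity iron uptake permeases, was at 83.8, 62.4 and 40.4 RPKM on pine and 6.79, 24.7 and 14.04 RPKM on Avicel (log2 change 2.07, SE 0.38, limma adjusted p = 0.00312). Ferric reductase 140747, of the membrane proteins that reduce iron before uptake, was at 25.6, 40.7 and 28.9 RPKM on pine and 10.4, 9.74 and 7.78 RPKM on Avicel (log2 change 1.65, SE 0.19, limma adjusted p = 0.000139). The groups of both stood apart. The most abundant ferric reductase, 109665, chosen after its values were seen, spread over 166, 61.8 and 518 RPKM on pine and 37.8, 104 and 459 RPKM on Avicel and was not called (log2 change 0.52, limma adjusted p = 0.723).

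Multicopper oxidases, a family that holds laccases and ferroxidases, had 4 of 5 tested members called higher and none lower (median 1.66). The member not called had a negative log2 change and a limma unadjusted p under 0.05. Multicopper oxidase 157228 was at 66.0, 34.9 and 212 RPKM on pine and 2.27, 1.38 and 2.10 RPKM on Avicel (log2 change 4.79, SE 0.56, limma adjusted p = 0.000163). Multicopper oxidase 165246 was at 139, 208 and 278 RPKM on pine and 39.5, 23.9 and 8.25 RPKM on Avicel (log2 change 3.26, SE 0.55, limma adjusted p = 0.00202). Pine replicate 3 was the highest library in both, and both calls held with any single library left out. Multicopper oxidase 123970 was at 106, 56.5 and 45.2 RPKM on pine and 7.38, 44.4 and 22.6 RPKM on Avicel (limma adjusted p = 0.0396), and lost its call without pine replicate 1 or 2 or Avicel replicate 1 or 3 (adjusted p up to 0.134). Its log2 change of 1.66 was 1.0 without Avicel replicate 1. It shares bases with FTR1 139155 on scaffold 9, at 394343 to 397155 and 391870 to 396926, so that reads may have been counted for both and each value is uncertain. The fourth, 139080, overlapped between media and was called at an adjusted p of 0.039, which passed 0.05 without pine replicate 1 or 3 or any single Avicel library (highest 0.116). Leaving out pine replicate 1, Avicel replicate 1 or Avicel replicate 3, dropping the filter on low values, or fitting pine and Avicel alone left 2 of the 5 called.

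Families that include oxidases able to form hydrogen peroxide had 5 of 33 tested members called higher and none lower (median 0.11). The number was 3 without Avicel replicate 3 or with only pine and Avicel fitted, and 8 without pine replicate 2, whether or not Avicel replicate 3 was also left out. Without pine replicate 3, 1 was called lower. The 5 calls were 2 of 15 FAD-linked oxidases and 3 of 13 glucose-methanol-choline oxidoreductases. No model labelled glyoxal oxidase, galactose oxidase or copper amine oxidase was called. Whether the called models form peroxide was not tested. FAD-linked oxidase 139157 was at 67.5, 51.6 and 37.9 RPKM on pine and 7.69, 10.3 and 7.84 RPKM on Avicel (log2 change 2.45, SE 0.20, limma adjusted p = 1.82e-05), and FAD-linked oxidase 135969 at 72.7, 114 and 69.1 RPKM on pine and 20.2, 21.5 and 21.2 RPKM on Avicel (log2 change 1.93, SE 0.21, limma adjusted p = 0.000109). Both pairs of groups were tight and separate. The glucose-methanol-choline oxidoreductase 133604, of a family with alcohol and glucose oxidases, was at 6.16, 4.43 and 45.9 RPKM on pine and 1.22, 0.509 and 0.227 RPKM on Avicel (log2 change 2.93, SE 0.70, limma adjusted p = 0.013; 1.63 with a pseudocount of 5). Pine replicate 3 was far above the other libraries, though all pine values exceeded all Avicel values. None of the 13 haem peroxidases, chloroperoxidases and catalases was called higher (median -0.61; 6 had an unadjusted p under 0.05). Animal-type haem peroxidase 101311 was called lower, with 58.5, 38.5 and 55.2 RPKM on pine and 133, 209 and 211 RPKM on Avicel (log2 change -1.83, SE 0.45, limma adjusted p = 0.0144), a call lost without pine replicate 2 (adjusted p = 0.0523) or Avicel replicate 3 (0.0518), when none of the 13 was lower. Without Avicel replicate 1 there were 3 called lower, and 2 without pine replicate 3.

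Cytochromes P450, haem enzymes that oxidise resin, aromatic and other lipophilic compounds, were called 20 times higher and 20 times lower among 175 tested members (median 0.08). P450 75851 was at 95.5, 123 and 239 RPKM on pine and 5.22, 1.26 and 4.73 RPKM on Avicel (log2 change 5.04, SE 0.51, limma adjusted p = 7.55e-05). P450 90431 was at 117, 122 and 231 RPKM on pine and 5.44, 3.76 and 5.63 RPKM on Avicel (log2 change 4.67, SE 0.40, limma adjusted p = 2.15e-05). Their per-library values run close together, and they lie next to each other on the plus strand of scaffold 7, at 1232403 to 1232660 and 1232723 to 1234356. By these positions 75851 is far shorter than 90431 and ends just before it. Whether they are parts of the same gene was not tested. P450 99035 was at 47.8, 114 and 156 RPKM on pine and 1.41, 2.96 and 6.30 RPKM on Avicel (log2 change 4.55, SE 0.47, limma adjusted p = 8.06e-05), and its aspen values of 6.08, 15.96 and 9.30 RPKM were much nearer to those on Avicel. P450 104840 was at 105.2, 211 and 91.9 RPKM on pine and 5.63, 13.3 and 9.55 RPKM on Avicel (log2 change 3.68, SE 0.42, limma adjusted p = 0.000144).

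On the lower side, P450 102645 was at 10.63, 13.1 and 9.34 RPKM on pine and 73.1, 57.7 and 39.1 RPKM on Avicel (log2 change -2.23, SE 0.22, limma adjusted p = 6.25e-05), and P450 104807 at 15.4, 26.5 and 17.7 RPKM on pine and 85.3, 86.8 and 77.2 RPKM on Avicel (log2 change -2.04, SE 0.23, limma adjusted p = 0.000139). Neither overlapped. P450 17446 and 17447 had the widest falls of the family, -2.33 and -2.37, from levels under 40 RPKM, and lost their calls without pine replicate 1 or 2 or Avicel replicate 2 or 3 (adjusted p up to 0.0741 and 0.0854). With pine replicate 2 and Avicel replicate 3 both left out, or with a pseudocount of 5, 12 P450 models were called lower.

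Among dioxygenases that use 2-oxoglutarate and iron, 8 of 33 tested members were called higher and none lower (median 0.32). Of these, 5 were among the 8 models labelled TauD, named for an enzyme that frees sulfite from taurine in bacteria, and the 8 had a median of 1.16. A pseudocount of 5 left 3 of the TauD models called. TauD model 135703 was at 55.3, 78.9 and 53.03 RPKM on pine and 18.5, 28.5 and 17.3 RPKM on Avicel (log2 change 1.51, SE 0.23, limma adjusted p = 0.00112). The widest rise was in 2OG-Fe(II) oxygenase 141205, at 99.1, 104 and 188 RPKM on pine and 16.2, 20.8 and 5.87 RPKM on Avicel (log2 change 3.20, SE 0.52, limma adjusted p = 0.00164). Its glucose values were 25.8, 45.6 and 87.9 RPKM, and its aspen values 83.8, 47.5 and 129 RPKM, so that all Avicel values were below those of the other media.

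Reductases that act on aldehydes, ketones and related carbonyls had calls on the higher side. Of 52 aldo/keto reductases 7 were called higher and none lower (median 0.07), and of 99 short-chain dehydrogenases 13 were higher and none lower (median 0.09). Aldo/keto reductase 140564 was at 127.6, 128.1 and 74.2 RPKM on pine and 15.99, 15.17 and 18.1 RPKM on Avicel (log2 change 2.63, SE 0.25, limma adjusted p = 4.48e-05). Aldo/keto reductase 25098 was at 459, 523 and 359 RPKM on pine and 170.1, 147 and 105.4 RPKM on Avicel (log2 change 1.67, SE 0.21, limma adjusted p = 0.000292). Glucose/ribitol dehydrogenase 167825, a short-chain dehydrogenase, was at 143, 194 and 231 RPKM on pine and 29.4, 22.3 and 31.7 RPKM on Avicel (log2 change 2.71, SE 0.28, limma adjusted p = 8.38e-05). In all 3 the media did not overlap. Leaving out pine replicate 1 or 3 put 1 aldo/keto reductase and 2 short-chain dehydrogenases on the lower side, and leaving out Avicel replicate 1 put 1 of each there. The short-chain dehydrogenases called higher numbered 8 without pine replicate 2 and Avicel replicate 3 together.

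Zinc-binding alcohol dehydrogenases went both ways, with 8 of 50 higher and 4 lower (median 0.20). Alcohol dehydrogenase 163585 was at 22.7, 41.7 and 37.7 RPKM on pine and 4.11, 4.78 and 4.33 RPKM on Avicel (log2 change 2.65, SE 0.20, limma adjusted p = 9.82e-06). Its neighbour in the numbering, 163584, was at 38.6, 20.7 and 285 RPKM on pine and 5.47, 3.99 and 5.04 RPKM on Avicel (log2 change 3.43, SE 0.83, limma adjusted p = 0.0137), with pine replicate 3 far above the rest. Alcohol dehydrogenase 29355 was lower, at 99.3, 16.1 and 50.3 RPKM on pine and 233, 432 and 609 RPKM on Avicel (log2 change -3.15, SE 0.55, limma adjusted p = 0.00253). Only 2 members were called lower without pine replicate 1, pine replicate 2 or Avicel replicate 1, or with only pine and Avicel fitted, and 1 without pine replicate 2 and Avicel replicate 3 together.

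Aromatic-ring hydroxylases, flavoenzymes that open the way to ring cleavage, had 7 of 37 called higher and 3 lower (median -0.23). Aromatic-ring hydroxylase 139466 was at 132, 132 and 314 RPKM on pine and 22.5, 25.8 and 25.5 RPKM on Avicel (log2 change 2.79, SE 0.31, limma adjusted p = 0.00011). Aromatic-ring hydroxylase 140507 was lower, at 19.1, 24.5 and 13.3 RPKM on pine and 89.0, 83.5 and 86.7 RPKM on Avicel (log2 change -2.17, SE 0.18, limma adjusted p = 1.7e-05). Both were separated in every library. The number called lower was 6 without Avicel replicate 1. Among NmrA-like proteins, which bind NAD(P), 133337 was at 1.804, 0.490 and 0.731 RPKM on pine and 18.02, 77.6 and 33.5 RPKM on Avicel (log2 change -4.27, SE 0.41, limma adjusted p = 4.95e-05; -2.81 with a pseudocount of 5), and its list of 13 had 1 call higher and 2 lower (median -0.05).

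Central carbon metabolism had few calls, all of them lower on pine in the lists described next. Of all tested models 4.56% were called lower. Of 5 tested isocitrate lyase and malate synthase models 2 were called lower and none higher (median -0.28). Isocitrate lyase splits isocitrate in the glyoxylate cycle, and in the brown rot fungus Fomitopsis palustris it is known as part of the route to oxalate. The label of these models also covers phosphorylmutases. Model 92053 was at 223, 12.4 and 337 RPKM on pine and 1889.7, 1471 and 2785 RPKM on Avicel (log2 change -4.30, SE 0.96, limma adjusted p = 0.00961). Pine replicate 2 was far below the other pine libraries, and without it the log2 change was -2.85 (adjusted p = 0.00543). Its glucose values, 2520.4, 672 and 892 RPKM, were of the order of those on Avicel. Model 23619 was at 184, 159 and 227 RPKM on pine and 456, 444 and 416 RPKM on Avicel (log2 change -1.22, SE 0.20, limma adjusted p = 0.00176).

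Alternative oxidase 131215, which passes electrons to oxygen past the cytochrome part of the respiratory chain, was at 14.7, 23.7 and 18.96 RPKM on pine and 82.3, 100.4 and 237 RPKM on Avicel (log2 change -2.67, SE 0.57, limma adjusted p = 0.00759). It was the only call among 28 respiratory chain and ATP synthase models (median -0.19), and was lost without pine replicate 2 and Avicel replicate 3 together (adjusted p = 0.0513). Of 29 mitochondrial carriers 2 were called lower (median -0.15), and carrier 28083 stood at 17.7, 9.15 and 19.2 RPKM on pine and 87.0, 77.6 and 59.0 RPKM on Avicel (log2 change -2.25, SE 0.29, limma adjusted p = 0.000376). Glycolysis had 1 of 21 models called lower (median -0.17) and the TCA cycle 1 of 28 (median -0.19). These shares and that of the respiratory chain were near the 4.56% of all tested models, and that of the carriers was somewhat above it. The glycolysis count was 2 without pine replicate 1 or 3 or Avicel replicate 2 and 0 without Avicel replicate 1 or 3. That of the TCA cycle was 2 without pine replicate 1 and 0 without pine replicate 2 or Avicel replicate 1. Phosphofructokinase 25177 lost its call without pine replicate 2 or Avicel replicate 1 or 3 (adjusted p up to 0.0533). Succinyl-CoA ligase 22303, with a log2 change of -1.02, fell short of the fold threshold without pine replicate 2 or Avicel replicate 1 (-0.92 in each) and with quantile normalization (-0.96).

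Among other metabolic enzymes, dihydrodipicolinate synthetase 104457 was called higher. Its family of aldolases and lyases is named for an enzyme of bacterial lysine synthesis. It was at 147, 101 and 88.8 RPKM on pine and 5.63, 7.08 and 5.53 RPKM on Avicel (log2 change 3.97, SE 0.19, limma adjusted p = 4.6e-07), with aspen between them at 28.1, 30.6 and 23.3 RPKM. Cupin 163340, of a barrel fold found in many enzymes, was at 50.98, 194 and 168 RPKM on pine and 7.11, 5.68 and 7.35 RPKM on Avicel (log2 change 3.96, SE 0.61, limma adjusted p = 0.00117). Aldehyde dehydrogenase 21681, abundant in all media, was at 2539.6, 2031 and 1919 RPKM on pine and 1095, 1033 and 726 RPKM on Avicel (log2 change 1.20, SE 0.23, limma adjusted p = 0.00371). These 3 were higher in every pine culture than in any Avicel culture. Of 19 aldehyde dehydrogenases 1 was called higher and 2 lower (median -0.06), and 1 to 4 were lower with single libraries left out. Terpenoid and sterol synthesis had 1 of 33 models called higher and 3 lower (median 0.10), and 1 to 3 were lower with single libraries left out. Terpene synthase 120409, of the enzymes that cyclise isoprenoids, was at 33.0, 43.01 and 47.0 RPKM on pine and 6.05, 4.64 and 2.93 RPKM on Avicel (log2 change 2.95, SE 0.25, limma adjusted p = 2.04e-05), and terpenoid synthase 162429 was lower, at 11.6, 6.61 and 10.7 RPKM on pine and 104, 73.1 and 52.9 RPKM on Avicel (log2 change -2.85, SE 0.30, limma adjusted p = 8.8e-05). Neither overlapped.

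Other labelled models with large falls on pine are given next, picked for the size of the fall. Phosphopantetheine attachment site model 140704 carries the domain to which growing acyl chains are bound, and was at 36.6, 8.59 and 16.6 RPKM on pine and 550.4, 309 and 727 RPKM on Avicel (log2 change -4.75, SE 0.44, limma adjusted p = 4.05e-05). AMP-dependent synthetase 145952, of a family that activates acids, was at 31.1, 15.3 and 42.6 RPKM on pine and 401, 535 and 518 RPKM on Avicel (log2 change -4.09, SE 0.43, limma adjusted p = 9.05e-05). Male sterility model 155146, whose NAD-binding domain occurs in fatty acyl reductases, was at 4.89, 6.49 and 3.25 RPKM on pine and 26.5, 229 and 206 RPKM on Avicel (log2 change -4.26, SE 0.72, limma adjusted p = 0.0021). Avicel replicate 1 was again the lowest Avicel library there. Of 5 tested models with that label 3 were called lower (median -1.39), or 1 with a pseudocount of 5. Haloacid dehydrogenase/epoxide hydrolase model 134844 was at 1.53, 0.513 and 2.89 RPKM on pine and 73.9, 46.6 and 96.8 RPKM on Avicel (log2 change -4.84, SE 0.39, limma adjusted p = 1.7e-05).

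**Figure D4:**
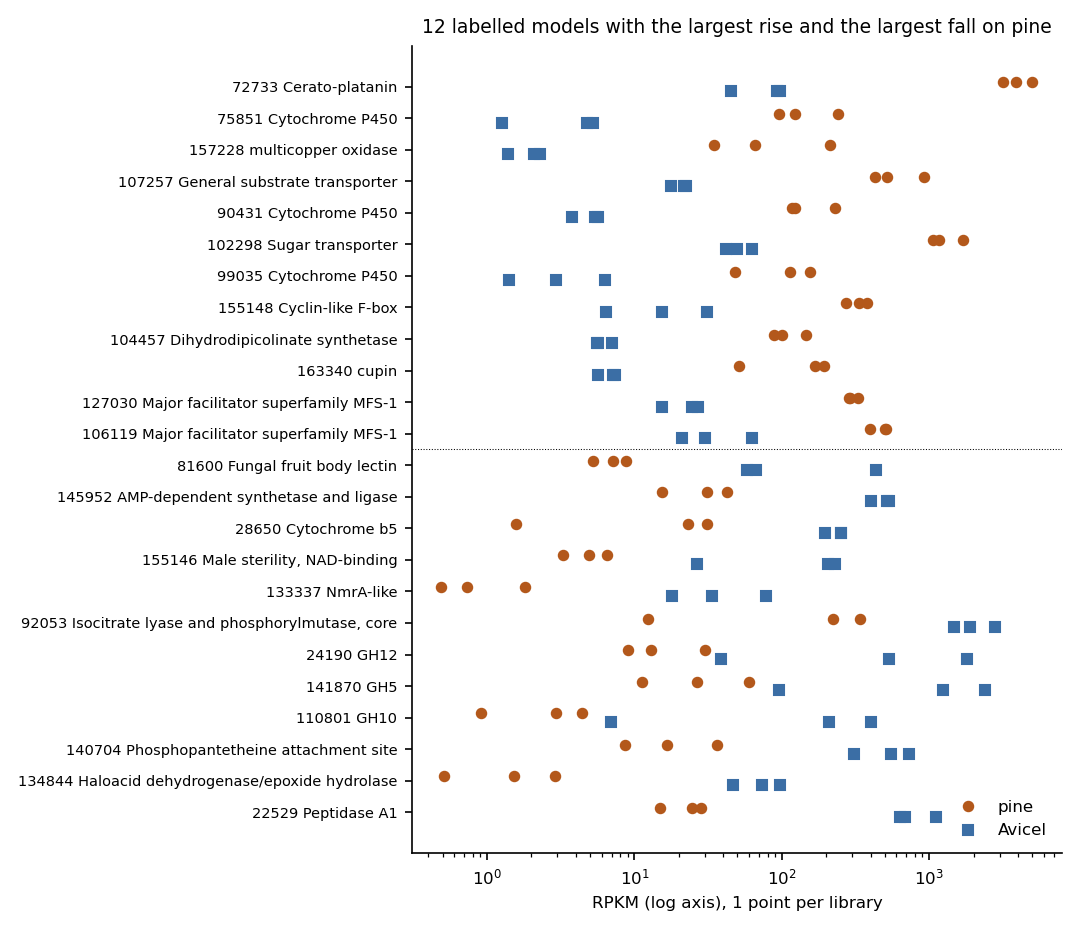
RPKM on a log axis in each of the 3 pine libraries (orange circles) and 3 Avicel libraries (blue squares) for the 12 labelled models with the largest rise, above the dotted line, and the 12 with the largest fall, below it. Cerato-platanin 72733 reached 3146 to 5019.9 RPKM on pine against 45.5 to 97.4 RPKM on Avicel, and peptidase A1 22529 was at 15 to 28.1 RPKM on pine against 637 to 1117 RPKM on Avicel.

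Calls among acid peptidases were mostly lower on pine. Peptidases of family A1 are pepsin-like aspartic enzymes that work at acid pH, and S53 enzymes, the sedolisins, are acid serine peptidases. Of 38 A1 models 1 was called higher and 5 lower (median 0.01), and of 21 S53 models 4 were lower and none higher (median -0.42). The A1 models called higher numbered 2 without pine replicate 1, pine replicate 3 or Avicel replicate 3. Peptidase A1 22529 was at 28.1, 24.4 and 14.96 RPKM on pine and 637, 683 and 1117 RPKM on Avicel (log2 change -5.11, SE 0.34, limma adjusted p = 4.41e-06). Peptidase A1 88607, the most abundant of those named, was at 656, 326 and 554 RPKM on pine and 3442, 3525 and 4198 RPKM on Avicel (log2 change -2.91, SE 0.31, limma adjusted p = 8.61e-05). Peptidase A1 17250 went the other way, with 298, 398 and 221 RPKM on pine and 78.1, 89.1 and 54.2 RPKM on Avicel (log2 change 2.02, SE 0.25, limma adjusted p = 0.00022). None of the 3 overlapped between media.

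Sedolisin 122691 was at 24.3, 19.7 and 19.7 RPKM on pine and 76.3, 65.5 and 179 RPKM on Avicel (log2 change -2.14, SE 0.36, limma adjusted p = 0.00188). The abundant sedolisin 29615 was at 1626, 1995 and 870.1 RPKM on pine and 3316, 3738 and 3899.7 RPKM on Avicel (log2 change -1.37, SE 0.34, limma adjusted p = 0.0158), a call that was lost without Avicel replicate 3 (adjusted p = 0.05). The number of sedolisins called lower was 9 without Avicel replicate 1 and 2 without pine replicate 3, and 1 was called higher with any one of pine replicate 3 and the 3 Avicel replicates left out. Peptidase S28 28272, of a serine carboxypeptidase family, was at 20.9, 15.1 and 17.1 RPKM on pine and 156, 115.1 and 214 RPKM on Avicel (log2 change -3.09, SE 0.22, limma adjusted p = 7.12e-06). Among C14 models, the metacaspases, 5 of 15 were called lower and none higher (median -0.52). Without Avicel replicate 3 there were 3 lower, and 1 was higher without pine replicate 3. Metacaspase 166137 was at 17.1, 5.61 and 41.6 RPKM on pine and 121, 275 and 222 RPKM on Avicel (log2 change -3.51, SE 0.57, limma adjusted p = 0.00164), and 27735, next to it on scaffold 11, at 34.3, 35.5 and 41.8 RPKM on pine and 111, 326 and 366 RPKM on Avicel (log2 change -2.64, SE 0.39, limma adjusted p = 0.000834). Of the intracellular machinery, limma called none of 33 proteasome models (median -0.11), and 4 had an unadjusted p under 0.05.

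Some regulators were called in each direction. Transcription factors had 3 of 191 called higher, a share below the 4.65% of all tested models, and 14 lower, a share above 4.56% (median -0.02). With single libraries left out, 8 to 18 were lower. The low end came without Avicel replicate 2, and 9 were lower without pine replicate 2 or Avicel replicate 3. The number higher was 6 without pine replicate 2 and 5 without Avicel replicate 1. C2H2 zinc finger 50037 was at 35.9, 13.7 and 97.3 RPKM on pine and 309, 221 and 455 RPKM on Avicel (log2 change -3.07, SE 0.64, limma adjusted p = 0.00688), and the fungal transcriptional regulator 90423 at 10.2, 2.31 and 9.60 RPKM on pine and 50.3, 44.4 and 43.8 RPKM on Avicel (log2 change -2.68, SE 0.42, limma adjusted p = 0.00127). Fungal transcriptional regulator 166519 was higher, at 144, 275 and 212 RPKM on pine and 104.6, 59.0 and 43.04 RPKM on Avicel (log2 change 1.64, SE 0.32, limma adjusted p = 0.00454). Calls on 50037 and 166519 were lost without pine replicate 2 and Avicel replicate 3 together (adjusted p = 0.0675 and 0.052).

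F-box proteins, which select targets for ubiquitin ligases, had 5 of 75 higher and 2 lower (median 0.17). The share higher was somewhat above the 4.65% of all tested models and the share lower was below the 4.56%. F-box 155148 was at 379, 335 and 273 RPKM on pine and 31.1, 15.4 and 6.45 RPKM on Avicel (log2 change 4.38, SE 0.47, limma adjusted p = 9.49e-05). The number higher was 8 without Avicel replicate 1, 3 without Avicel replicate 3 or with median centring, and 2 with a pseudocount of 5. Those lower numbered 1 without pine replicate 2 or Avicel replicate 2, and 3 were lower without Avicel replicate 1 or 3. Cyclin-like 163204, of the proteins that pace the cell cycle, was at 89.8, 76.3 and 74.2 RPKM on pine and 7.38, 6.53 and 3.55 RPKM on Avicel (log2 change 3.61, SE 0.27, limma adjusted p = 9.82e-06). The list of DNA replication, cell cycle and histones had 2 of 59 called higher and 1 lower (median 0.15), shares below those of all tested models. Protein kinases had 6 of 209 called higher and 4 lower (median 0.13), or 12 higher with a pseudocount of 0.1. The main shares were below the 4.65% and 4.56% of all tested models. Kinase 29075, the most abundant of the named kinases, was at 192, 219.5 and 226 RPKM on pine and 406, 752 and 873 RPKM on Avicel (log2 change -1.60, SE 0.30, limma adjusted p = 0.00371).

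Ribosomal proteins had a negative median on pine against Avicel without a single call. Of 117 tested models limma called none, 59 had an unadjusted p under 0.05, and 13 had a positive log2 change, with a median of -0.46 against 0.04 over all models. They took 4.08% to 5.4% of all RPKM in a pine library and 4.89% to 7.7% in an Avicel library, so that the ranges overlapped. The median was -0.54 with median centring, where 3 were called lower, and -0.35 with quantile normalization. Without Avicel replicate 1 it was -0.26, and without pine replicate 1, pine replicate 3, Avicel replicate 2 or Avicel replicate 3 there were 11, 2, 5 and 1 models called lower. Ribosomal protein S25 24838 was at 1520.4, 1400.3 and 1365 RPKM on pine and 2257, 1559 and 1534 RPKM on Avicel (log2 change -0.30, SE 0.20, limma adjusted p = 0.31).

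Of the 7 models that ranked among the 5 most abundant on pine or on Avicel, only 156377 had an InterPro label. Model 137127 led on pine with 18198, 15446 and 26023 RPKM on pine and 25343, 16257 and 17049 RPKM on Avicel, and did not differ detectably (log2 change 0.02, SE 0.35, limma adjusted p = 0.975). Model 167658 was at 15334, 4176 and 24059 RPKM on pine and 26904, 11953 and 39809 RPKM on Avicel (log2 change -1.02, SE 0.83, limma adjusted p = 0.42). Its spread within each medium was wider than the difference. Model 75032 was the most abundant on Avicel, at 829.5, 235 and 1846 RPKM on pine and 31778, 17775 and 44017 RPKM on Avicel (log2 change -5.36, SE 0.76, limma adjusted p = 0.000684). It alone made up 0.0345% to 0.255% of all RPKM in a pine library and 2.44% to 5.63% in an Avicel library, and 1.2% to 3.93% on glucose.

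The labelled one, barwin-related endoglucanase 156377, was at 6978, 7402 and 9443 RPKM on pine and 19261, 16221 and 17714 RPKM on Avicel (log2 change -1.17, SE 0.36, limma adjusted p = 0.0415). All Avicel values were higher, but the call was lost without any single library except pine replicate 3 (adjusted p up to 0.108), and quantile normalization gave it a change of 0. The adjusted p was 0.0839 with only pine and Avicel fitted and 0.182 with no filter on low values. It shares bases with NAD(P)-binding model 107668 on the other strand of scaffold 12, so that reads may have been counted for both. Unlabelled 22946, which has a signal peptide probability of 0.989, was at 9715, 9795 and 7936 RPKM on pine and 2840.4, 2729 and 3124 RPKM on Avicel (log2 change 1.65, SE 0.21, limma adjusted p = 0.000307), and unlabelled 29253 at 6443, 7138 and 6909 RPKM on pine and 3870.4, 2945 and 2643 RPKM on Avicel (log2 change 1.13, SE 0.21, limma adjusted p = 0.00384; 0.98 without pine replicate 2 and Avicel replicate 3).

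Unlabelled models also held some of the widest changes. Model 18691 was at 24.3, 15.1 and 28.1 RPKM on pine and 1978, 950.0 and 2016 RPKM on Avicel (log2 change -6.10, SE 0.59, limma adjusted p = 5.11e-05), and model 144582 at 10.1, 3.31 and 10.8 RPKM on pine and 241, 258 and 268 RPKM on Avicel (log2 change -4.96, SE 0.42, limma adjusted p = 2.15e-05). Both stood far below in every pine culture. Upward, 129955 was at 84.8, 137 and 54.99 RPKM on pine and 1.66, 1.07 and 0.985 RPKM on Avicel (log2 change 5.29, SE 0.26, limma adjusted p = 4.6e-07), and its aspen values were higher still, 193, 224 and 244 RPKM. Model 143324 was at 494, 850.4 and 563 RPKM on pine and 37.5, 27.5 and 25.2 RPKM on Avicel (log2 change 4.34, SE 0.20, limma adjusted p = 4.6e-07). Model 76446 was at 319.6, 36.1 and 227 RPKM on pine and 3.72, 2.79 and 0.870 RPKM on Avicel (log2 change 5.44, SE 0.85, limma adjusted p = 0.00128), with pine replicate 2 well below its replicates. No called model was listed at 0 in all 3 libraries of either medium.

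Neighbouring models were at times called together. There were 26 runs of at least 3 consecutive tested models called in the same direction. Models that overlap in position can share reads, and whether counting used strand is not stated. On scaffold 3, P450 models 24175, 24176 and 24177 lay at 3466665 to 3469148, 3470288 to 3472772 and 3473672 to 3476193 on the minus strand, with log2 changes of 2.98, 3.60 and 3.07. P450 99035, described above, lay close by on the plus strand at 3483874 to 3486215. On scaffold 24, isopenicillin N synthase-like 141204 and 2OG-Fe(II) oxygenase 141205 lay at 283162 to 285125 and 285687 to 287595 beside major facilitator 134740, whose call was lost without pine replicate 1 or 3 or Avicel replicate 1 or 3 (adjusted p up to 0.144). The first was at 64.5, 99.5 and 133 RPKM on pine and 10.8, 25.2 and 6.44 RPKM on Avicel (log2 change 2.86, SE 0.50, limma adjusted p = 0.00242). On scaffold 11, general substrate transporter 107257 and oligopeptide transporter 107259 lay at 1492859 to 1495460 and 1497298 to 1500824, both higher on pine.

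The longest run, of 5 models, was lower on pine and began on scaffold 15 with isocitrate lyase-labelled 92053 at 9480 to 10803. It went on with cytochrome b5 28650 at 12239 to 15687, which was at 23.1, 1.58 and 31.1 RPKM on pine and 251, 253 and 197 RPKM on Avicel (log2 change -4.21, SE 0.79, limma adjusted p = 0.00371). Pine replicate 2 was the lowest library for both models. Models 157243 and 20602 overlap 28650 in position and may share its reads. The call on 157243 was lost without any single pine library or Avicel replicate 2 or 3 (adjusted p up to 0.0783), which leaves 3 consecutive models called. A run of 4 on scaffold 8 ended with unlabelled 18691 at 219906 to 221672, and its member 154084 was not called without pine replicate 1 or 2 or Avicel replicate 1 or 3 (adjusted p up to 0.12). On scaffold 9, amidase 139318, at 1288989 to 1291991, had a log2 change of 2.85 between 2 other models called higher, of which 154939 fell short of the fold threshold without pine replicate 2 (0.97) or Avicel replicate 1 (0.77).

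Protein scores were deposited as 1 emPAI value per medium, a score that rises with the number of peptides seen for a protein, so that they carry no SD and no test. Peptides numbered 2789 on pine and 1260 on Avicel in all, while the emPAI columns share the same sum of 458.6 and were thus scaled to each other. Of 46 models called higher that were detected on pine or Avicel, 37 had the higher emPAI on pine and 30 were at 0 on Avicel. Of 32 models called lower, 15 had the higher emPAI on pine and 17 on Avicel. Among 443 detected models that were not called, 341 (77.0%) had the higher emPAI on pine. Against that are to be read the shares of 80.4% among models called higher and 46.9% among models called lower. Of the same 443, 237 were at 0 on Avicel, against which the 30 of 46 models called higher are to be read.

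Some large transcript changes had a protein value on the same side. WSC protein 106250 had an emPAI of 0.690 from 11 peptides on pine and 0 on Avicel, and multicopper oxidase 165246 had 1.05 from 6 peptides on pine and 0 on Avicel. GH28 128405 had 0.452 from 4 peptides on pine and 0 on Avicel. All 3 were thus detected on pine and not on Avicel, as were 237 of the 443 detected models that were not called. In the other direction, peptidase A1 22529 had 0.846 on pine and 12.1 on Avicel from 5 peptides in each. GH12 24190 had 8.98 on pine and 34.6 on Avicel from 2 peptides in each, and 92053 was at 0 on pine and 0.645 on Avicel. The transcripts of these 3 were lower on pine as well. For 22529 and 24190 the scores differed between the media while the number of peptides did not. GH5 141870 differed little, with 1.52 on pine and 1.77 on Avicel. Fruit body lectin 81600 had 3.45 on pine and 2.68 on Avicel, opposite in order to its transcript.

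**Figure D5:**
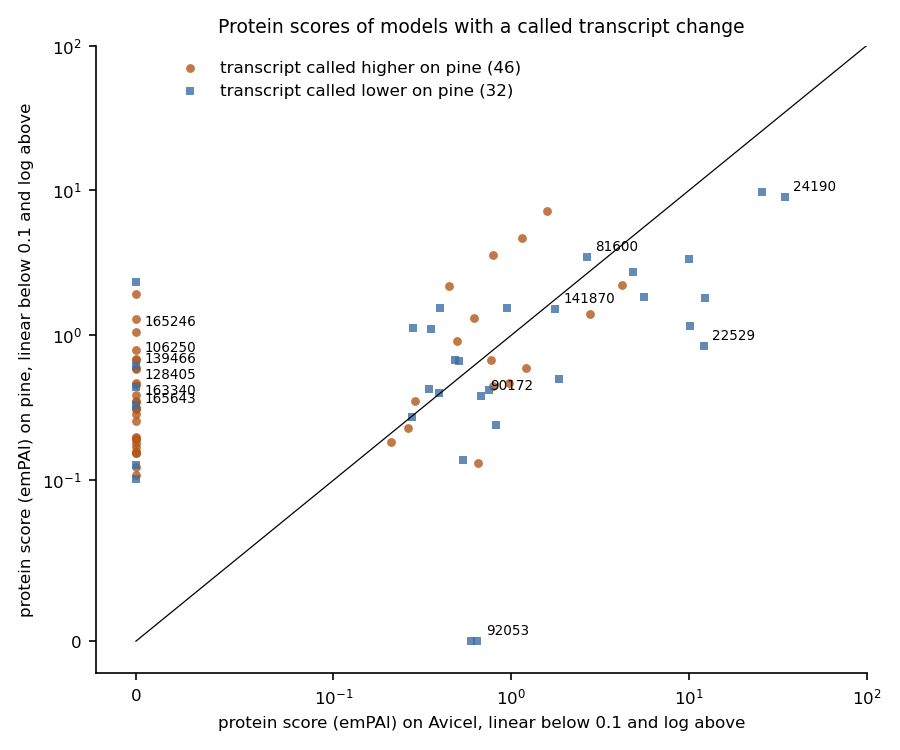
Deposited protein score (emPAI) on pine against that on Avicel for 46 models whose transcript was called higher on pine (orange circles) and 32 called lower (blue squares), 1 value per medium, on axes that are linear below 0.1 and logarithmic above. Points above the line scored higher on pine, and 30 orange points stand at 0 on Avicel.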

How the data were processed

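RNA was sequenced from 12 cultures of W. cocos MD-104, 3 on each of 4 media, as single reads of 100 nt, per the labels. The authors deposited 1 table of 12746 gene models on 225 scaffolds. Per the submitters' processing notes, CASAVA 1.8.2 was used. The aligner, counter, strand setting and genome build were not given in the sources used here. The deposited expression values are RPKM, a unit inferred from the values because no header names it, and multi-mapped or overlapping reads may be split or shared in them. The deposited emPAI column is a protein score with 1 value per medium, and the deposited signal peptide column is a fraction from 0 to 1. The table has InterPro labels for 7089 models; IDs are protein IDs, and a label does not settle an activity.

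Models with a mean of at least 1 RPKM on pine or Avicel were tested as log2(RPKM + 1) with limma 3.58.1 in R 4.3.3. All 12 libraries entered with 4 group means and an intensity trend (8 residual and 3.6 prior degrees of freedom), and p-values were adjusted by Benjamini-Hochberg over 9992 models. A call needed an adjusted p under 0.05 and a fold of at least 2. Depth was computed from the steps between low RPKM values. The procedure was tested on simulated data. Protein scores were compared without a test.

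The members and lists were chosen with earlier results of these data known, and the word lists were revised after reading the labels but without reference to expression. Genes were named by size of change (12 labelled and 4 unlabelled each way without overlap), up to 4 called members each way per list, the most abundant member of a list with no call, the 5 most abundant models per medium, runs of at least 3 neighbours, and the 6 widest changes each way with a protein score. Alternatives were other pseudocounts (0.1 and 5), filters, scalings, thresholds, a fit of pine and Avicel alone, a replicate block, no intensity trend, and each library left out in turn.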

Additional observations from a re-analysis of the deposited data

Results flagged for a closer look

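The fit also compared pine with aspen, and 8 of the models that met the naming rule differed there, which means that their change against Avicel differed between the woods. This was tested in the same limma fit, over 9992 models of which 17 were called. Both woods are set against the same Avicel libraries, and pine and aspen were on the same lane.

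The P450 models 99035 and 24177 had the widest gaps of the 8 between the woods. P450 99035 was at 47.8, 114 and 156 RPKM on pine, 6.08, 15.96 and 9.30 RPKM on aspen and 1.41, 2.96 and 6.30 RPKM on Avicel. Its difference between pine and aspen was 3.16 on the log2 scale (SE 0.47, limma adjusted p = 0.0205), with changes against Avicel of 4.55 on pine and 1.38 on aspen. P450 24177 was at 33.7, 62.6 and 79.9 RPKM on pine, 6.89, 5.95 and 7.62 RPKM on aspen and 7.64, 6.08 and 3.88 RPKM on Avicel. The woods differed by 2.85 (SE 0.29, limma adjusted p = 0.00251), with 3.07 on pine and 0.22 on aspen against Avicel. In both models every pine value was above every aspen value.

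Dihydrodipicolinate synthetase 104457 differed by 1.97 (SE 0.19, limma adjusted p = 0.00251), with 3.97 on pine and 2.00 on aspen against Avicel. Dienelactone hydrolase 141329, of a family that acts on breakdown products of aromatic rings in bacteria, differed by 1.96 (SE 0.33, limma adjusted p = 0.04). It was at 217, 329.9 and 166 RPKM on pine, 47.6, 77.1 and 52.4 RPKM on aspen and 60.4, 51.4 and 69.4 RPKM on Avicel, with changes against Avicel of 1.91 on pine and -0.05 on aspen. GH28 92023 differed by 1.58 (SE 0.17, limma adjusted p = 0.00437), with 1.81 on pine and 0.23 on aspen.

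Sugar transporters 163632 and 135536 were higher on both woods than on Avicel, and more so on pine. Sugar transporter 163632 was at 132, 131 and 89.0 RPKM on pine, 40.7, 50.2 and 39.1 RPKM on aspen and 15.5, 23.6 and 25.8 RPKM on Avicel. The woods differed by 1.40 (SE 0.23, limma adjusted p = 0.0396), with 2.39 on pine and 0.99 on aspen. Sugar transporter 135536 differed by 1.18 (SE 0.18, limma adjusted p = 0.0274), with 3.26 on pine and 2.08 on aspen. Oxidoreductase 26576 was at 226, 171 and 205 RPKM on pine, 85.1, 101 and 98.6 RPKM on aspen and 78.5, 78.9 and 88.4 RPKM on Avicel, and differed between the woods by 1.07 (SE 0.18, limma adjusted p = 0.0496), with 1.28 on pine and 0.21 on aspen.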

How the results depend on the processing

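Other pseudocounts, filters, scalings and fits gave 326 to 558 models higher on pine and 320 to 521 lower. Leaving out single libraries gave 412 to 493 higher and 346 to 543 lower. A call reached every one of those fits for 311 of the 465 models higher and 273 of the 456 lower. Without a fold threshold 1187 were higher and 795 lower, with a fold of at least 4 there were 144 and 137, and at an adjusted p under 0.01 there were 362 and 287. Without pine replicate 2 and Avicel replicate 3, an alternative added after seeing the data, 391 were higher and 276 lower. The median log2 change of all models was -0.03 with median centring. No called model was called in the opposite direction under any alternative run. Of 294 called models that met the naming rule, 196 kept their call in every alternative fit set at the outset that tested them, with the thresholds as in the report. The uncalled model 137127 (0.02) was at -0.05 with median centring and between -0.19 and 0.22 with single libraries left out, and was negative without pine replicate 3 (-0.19), Avicel replicate 2 (-0.10) or Avicel replicate 3 (-0.06). Model 167658 (-1.02) was at 0.10 without pine replicate 2 and Avicel replicate 3, and between -1.55 and -0.28 with single libraries left out. The cause was not tested.

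Replicate numbers were not used as pairs in the main fit. Same-numbered pine and Avicel libraries had deviations correlated at -0.0271, 0.2686 and 0.3001. For numbers 2 and 3 the same-numbered library was the best match, and pine replicate 1 and Avicel replicate 1 each correlated best with another number. With 3 libraries per medium these values cannot decide whether the numbers pair the samples. With the number as a block, 470 models were higher and 476 lower, of which 459 and 452 were also called without it. Of the 294 called models that met the naming rule 289 kept their call, and those that lost it were 127776 (adjusted p = 0.0605), 139839 (0.0631), 26286 (0.0547), 156377 (0.0625) and 134740 (0.0523). The block put 8 models of the list of peroxide-forming oxidases higher in place of 5 and 1 thaumatin-like protein in place of 2. On the lower side it called 1 cerato-platanin in place of 0, 4 aldehyde dehydrogenases in place of 2 and 2 haem peroxidases, chloroperoxidases and catalases in place of 1. Depth limits the lowest levels, where 3 reads in 1 kb are worth up to 0.305 RPKM.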

Other observations

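Some InterPro labels not described above had calls in 1 direction. Models labelled Leucine-rich repeat 2, a repeat that binds other proteins, had 5 of 10 called lower on pine and none higher (median -0.83). The number was 3 without Avicel replicate 2, and 1 without pine replicate 2 and Avicel replicate 3 together. The label Oxidoreductase, N-terminal, of NAD(P)-binding enzymes, had 4 of 11 called higher and none lower (median 0.33), and 3 or 4 were higher with single libraries left out.

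Heat shock proteins and chaperones had 2 of 63 called lower (median -0.10), a share below the 4.56% of all tested models, and none higher, or 1 higher without pine replicate 2. Labels within the list differed in sign. The 7 models labelled Hsp20, small chaperones, all had a negative change (median -1.09), and the 3 labelled HSP20-like chaperone all had a positive one (median 0.41). Of the Hsp20 label only 29156 was called, at 49.7, 64.1 and 61.5 RPKM on pine and 101, 213 and 344 RPKM on Avicel (log2 change -1.73, SE 0.36, limma adjusted p = 0.00697).

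Thioredoxins, glutaredoxins and superoxide dismutases had 3 of 24 called higher and none lower (median 0.08), or 1 higher with a pseudocount of 5. Glutathione S-transferases had 2 of 26 called in each direction (median 0.14), shares somewhat above the 4.65% and 4.56% of all tested models. Without pine replicate 1, pine replicate 3, Avicel replicate 1 or Avicel replicate 2, 1 was higher, and without pine replicate 2 or Avicel replicate 3, 1 was lower. Lipases and carboxylesterases had 4 of 44 called higher and 2 lower (median 0.10). The share higher was above 4.65% and the share lower near 4.56%. Without any single pine library or Avicel replicate 2, 1 was lower, and none was without Avicel replicate 3. Carboxylesterase 22804 was at 414, 498 and 407 RPKM on pine and 151, 152 and 167 RPKM on Avicel (log2 change 1.48, SE 0.17, limma adjusted p = 0.000142), without overlap. Enzymes of fatty acid oxidation and synthesis had 2 of 35 called in each direction (median 0.22), near the 4.65% and 4.56% of all tested models. The number higher was 4 without pine replicate 2 and 1 without pine replicate 1, pine replicate 3, Avicel replicate 2 or Avicel replicate 3. None was lower without pine replicate 2, Avicel replicate 1 or Avicel replicate 2.

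Glucose levels lay nearer to the pine than to the Avicel level for 23 of the 465 models higher on pine (4.95%) and 67 of the 456 lower (14.7%), against 38.3% of all tested models. These shares rest on the same pine and Avicel libraries as the calls.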
